A study of Mus musculus with 2 samples.

Results

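The receptors for the common gamma chain cytokines were compared between activated and naive CD8+ T cells, through 7 receptor chain genes (Il2ra, Il2rb, Il4ra, Il7r, Il9r, Il15ra and Il21r) and 2 kinase genes (Jak1 and Jak3). Every probe set whose platform annotation names 1 of these genes and no other was taken, which gave 17 of the 45037 probe sets other than controls and 9 of 18193 named genes. Activated cells were proliferating CD8+ T cells taken 72 h after activation, and naive cells were resting CD8+ T cells. Both came from pmel-1 mice, a strain in which a T cell receptor transgene directs CD8+ T cells to a melanocyte antigen. The sources used here give neither the activating agent, nor any cytokine added, nor the age of the mice. RNA from 4 independent experiments was pooled for each group and hybridised to 1 whole-genome mouse array, so replicate errors and tests cannot be given, and precision is limited by having 1 array a group.

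The common gamma chain, encoded by Il2rg, is shared by the receptors for interleukins 2, 4, 7, 9, 15 and 21, and each cytokine is recognised by a private chain beside it. Binding brings together the kinases JAK1 and JAK3, which phosphorylate STAT factors, above all STAT5. JAK3 sits on the gamma chain. JAK1 sits on the private chain or, for interleukins 2 and 15, on the beta chain that both share. In CD8+ T cells interleukin-7 keeps resting cells alive, interleukin-2 drives the expansion of activated cells and interleukin-15 maintains memory cells. Il2rg has no probe set of its own symbol in the annotation used and was not analysed here.

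The values are the authors' model-based intensities on a linear scale, and the lowest is 1. A gene or probe set was called higher or lower in activated cells when the ratio of the arrays was at least 1.4 after values under 100 had been raised to 100, and the unadjusted values lay more than 100 apart (the size rule). A ratio with 1 value under 100 is a lower bound, and none was formed where both lay under 100. A gene with several probe sets is read by the brightest, by mean over the arrays. By this rule 2 of the 9 genes were higher in activated cells (Il2ra and Il2rb), 4 were lower (Il4ra, Il7r, Il21r and Jak1), 2 did not pass (Il15ra and Jak3) and Il9r lay under 100 on both arrays. Of all 9842 genes that reached 100 on either array, 23.7% were called higher and 20.6% lower. The median log2 ratio of the 8 measured members was -0.45, against 0.01 over all measured genes. Counted by probe set, 4 of the 14 that reached 100 were higher and 8 lower, against 21.9% and 19.3% of all such probe sets.

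**Figure D1:**
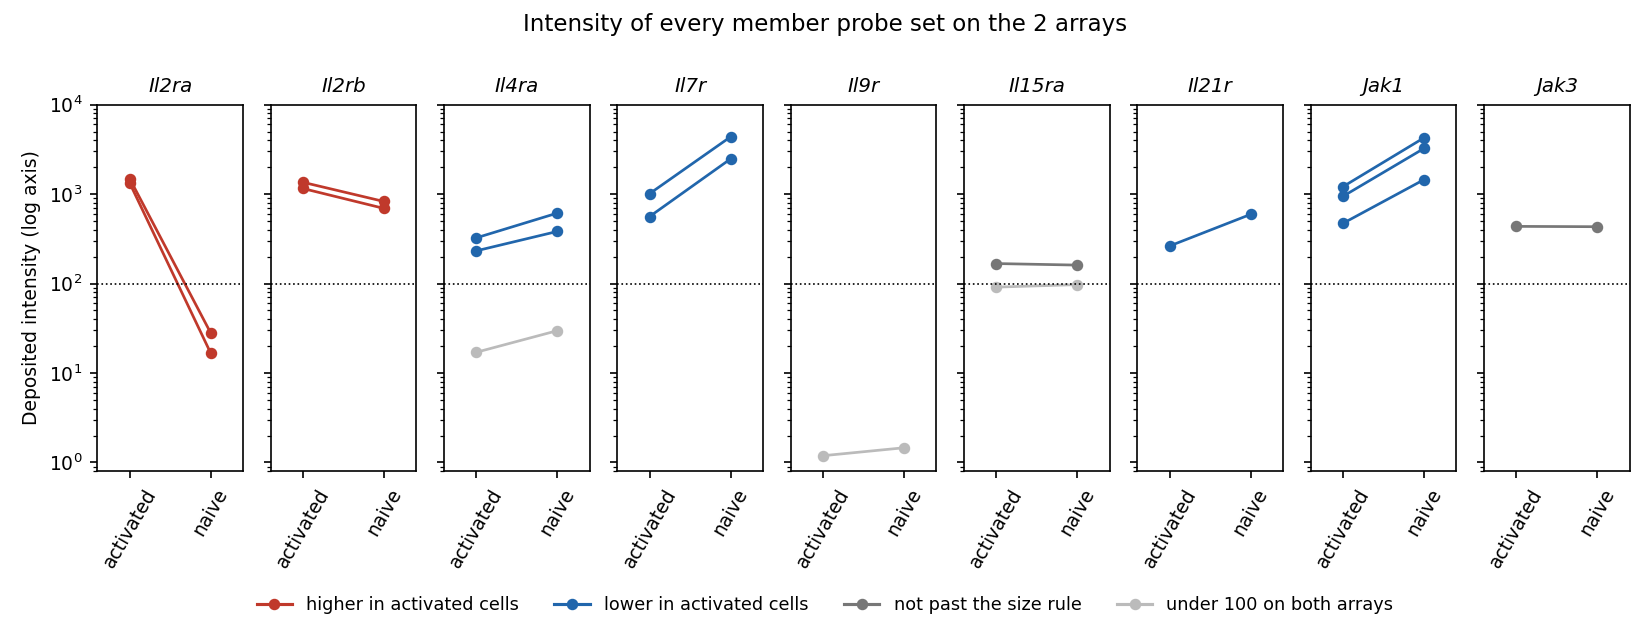
Deposited intensity (log axis) of each of the 17 probe sets on the activated array (left of each panel) and the naive array (right), a line for each probe set, with the 100 level dotted. The lines of Il2ra cross the 100 level, those of Il7r and Jak1 are lower on the activated array, and the line of Jak3 is level.

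The receptor genes with the highest and the lowest ratio, Il2ra and Il7r, are shown by the 250 bases before their RefSeq transcription start (build GRCm38.p6), since their chains mark the activated and the resting state. The windows were searched on both strands for letters bound by 4 groups of factors that act in T cells, namely STAT (TTCNNNGAA), FOXO (GTAAACA), AP-1 (TGANTCA) and NF-kappaB (GGGNNNNNCC). Matches are in capitals, and the sequences read 5′ to 3′ on the strand of the gene. The Il2ra window is chr2:11642542-11642791 (plus strand) and the Il7r window chr15:9529877-9530126 (minus strand).
Il2ra: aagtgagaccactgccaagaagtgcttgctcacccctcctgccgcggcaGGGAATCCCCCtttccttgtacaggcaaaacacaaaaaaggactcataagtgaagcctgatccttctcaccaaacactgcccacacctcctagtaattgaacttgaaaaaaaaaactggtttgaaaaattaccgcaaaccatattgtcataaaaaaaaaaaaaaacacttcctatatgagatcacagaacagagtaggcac
Il7r: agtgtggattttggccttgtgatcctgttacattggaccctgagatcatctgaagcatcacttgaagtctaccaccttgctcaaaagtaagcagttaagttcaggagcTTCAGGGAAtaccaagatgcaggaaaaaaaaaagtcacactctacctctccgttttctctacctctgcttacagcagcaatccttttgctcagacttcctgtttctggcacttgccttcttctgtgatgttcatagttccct
The capitals in Il2ra are 2 overlapping matches to the NF-kappaB letters, starting 201 and 200 bases before the start. The same letters occur in 45.8% of the 32851 promoter windows of this length in the reference table. The human IL2RA promoter is known to bind NF-kappaB, which is background and was not measured here. The capitals in Il7r are 1 match to the STAT letters, 142 bases before the start, which 7.02% of all windows hold. Neither window has a match to the AP-1 letters, found in 6.75% of windows, or to the FOXO letters, found in 3.17%. Il2rb has no window in the reference table and was not searched. Of the other members in the table, Il21r has 1 FOXO match, 38 bases before the start, and Il15ra has 1 AP-1 match, 30 bases before 1 of its starts. Windows of Il15ra, Il21r and Jak1 hold the NF-kappaB letters as well. Such matches describe letters and not binding.

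Il2ra encodes CD25, the alpha chain that turns the interleukin-2 receptor into its high-affinity form. Its brighter probe set (1420692_at) was at 1492 in activated cells and 28.1 in naive cells, at least 14.9-fold higher in activated cells. Its other probe set (1420691_at) was at 1335 in activated cells and 16.8 in naive cells, at least 13.4-fold higher. Both naive values lay under the 100 level, so neither fold has an upper limit. Because CD25 also marks regulatory T cells, their defining gene Foxp3 was read beside it, and lay under 100 on both arrays at 65.9 in activated cells and 76.5 in naive cells. Ikzf2, the other regulatory T cell marker listed, was at 710.2 in activated cells and 1055 in naive cells (1.49-fold lower), and Cd4 lay under 100 on both arrays (50.5 in activated cells and 45.1 in naive cells).

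Il2rb encodes CD122, the beta chain that signals for interleukin-2 and interleukin-15 alike. Its probe set 1448759_at was at 1354 in activated cells and 826 in naive cells (1.64-fold higher). The second, 1417546_at, was at 1154 in activated cells and 691 in naive cells (1.67-fold higher). Unlike Il2ra, the beta chain was thus well above 100 before activation, and its log2 ratio was 0.71 where that of Il2ra was at least 3.90. The Il2rb call is lost with a fold minimum of 2, under which Il2ra is the single member called higher. Eomes and Tbx21, T-box factors known to induce Il2rb, differed in direction. Tbx21 was at 764 in activated cells and 333 in naive cells (2.30-fold higher), and Eomes at 215 in activated cells and 725 in naive cells (3.37-fold lower).

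Il15ra encodes the alpha chain that presents interleukin-15 to neighbouring cells carrying the beta and gamma chains. Its brighter probe set (1422397_a_at) was at 167 in activated cells and 161 in naive cells (log2 ratio 0.06). The other (1448681_at) was at 91.2 in activated cells and 97.2 in naive cells, both just under 100. Neither passed the size rule, and values so near the 100 level would not show a small difference. In the RefSeq gene table Il2ra and Il15ra are neighbours on chromosome 2 with 0 protein-coding genes between them.

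Il7r encodes CD127, the private chain of the interleukin-7 receptor, which also serves the receptor for the cytokine TSLP. Its brighter probe set (1448575_at) was at 1011 in activated cells and 4369 in naive cells (4.32-fold lower in activated cells). The second (1448576_at) was at 561 in activated cells and 2475 in naive cells (4.41-fold lower). Its log2 ratio of -2.11 was the lowest of the members and ranked 136 from the bottom of the 9842 measured genes. Both probe sets remained above the 100 level in activated cells, so the transcript was lower and not lost. Between the arrays the ratio of Il2ra to Il7r differed by 6.01 on the log2 scale, a lower bound.

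Factors known to control Il7r stood on both sides. Foxo1, which activates Il7r in T cells, was at 983 in activated cells and 2987 in naive cells (3.04-fold lower), and its 3 probe sets above 100 were all called lower. Gfi1, a repressor of Il7r in CD8+ T cells, was at 775 in activated cells and 289 in naive cells (2.68-fold higher). Gabpa, an ETS-family activator of Il7r, was at 911 in activated cells and 956 in naive cells, although its second probe set was called higher, with a log2 ratio of 0.98. Ets1 was at 3257 in activated cells and 6499 in naive cells (1.996-fold lower). All 4 of its probe sets were called lower, but the gene call is lost with a fold minimum of 2. Runx1 was lower by at least 1.70-fold, with 34.1 in activated cells and 170.4 in naive cells. Of its 4 probe sets that reached 100, 3 were called lower and the other gave a log2 ratio of 0.09. The Runx1 call is lost with a fold minimum of 2 or a difference minimum or floor of 200. Runx3 was at 1076 in activated cells and 1095 in naive cells. Of the 8 listed regulators of Il7r and Il2rb, 2 were higher and 4 lower, and their median log2 ratio was -0.42, where 23.7% of all measured genes were higher and 20.6% lower. Crlf2, the chain that pairs with the interleukin-7 receptor chain for TSLP, was at 899.8 in activated cells and 1377 in naive cells (1.53-fold lower).

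Il4ra and Il21r, the private chains for interleukin-4 and interleukin-21, were both lower in activated cells, by less than Il7r. Il4ra was at 324 in activated cells and 613 in naive cells by 1421034_a_at (1.89-fold lower). Its second probe set (1423996_a_at) was at 232 in activated cells and 382 in naive cells (1.65-fold lower), and 1447858_x_at lay under 100 on both arrays. Il21r, by its 1 probe set (1450456_at), was at 263 in activated cells and 593 in naive cells (2.26-fold lower). The Il4ra call is lost with a fold minimum of 2. These genes are neighbours on chromosome 7 with 0 annotated genes between them. Il13ra1 and Il13ra2, which encode the chains that bind interleukin-13, lay under 100 on both arrays.

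Il9r, the chain for interleukin-9, was at 1.19 in activated cells and 1.46 in naive cells by its 1 probe set (1421570_at), close to the lowest deposited value. No ratio was formed. A single probe set at this level cannot separate a gene that is not transcribed from a probe set that does not respond.

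**Figure D2:**
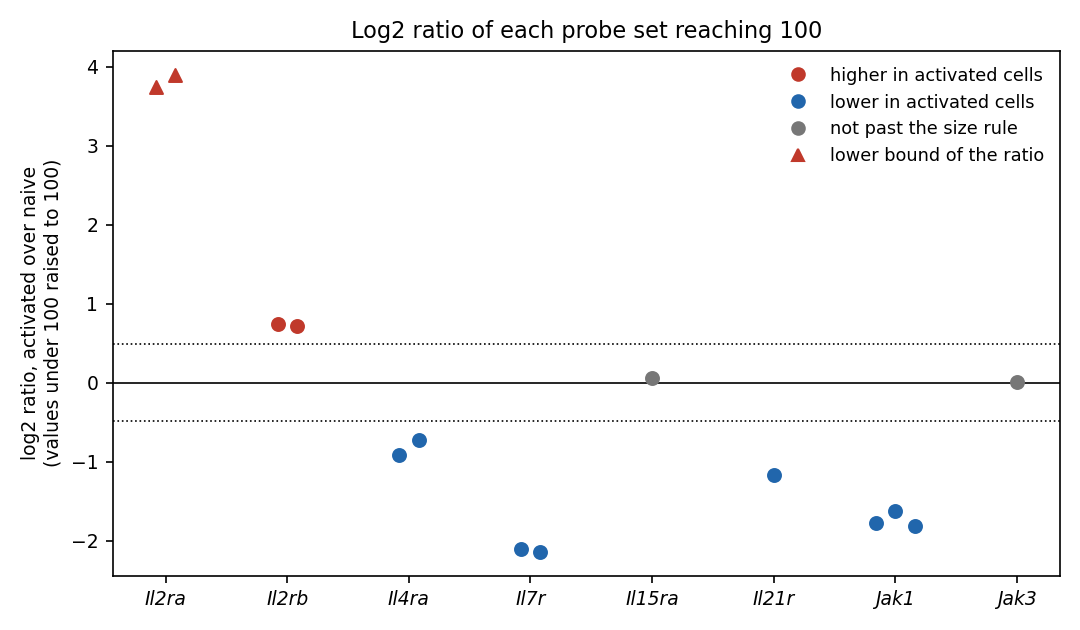
Log2 ratio of activated over naive cells for each of the 14 member probe sets that reached 100 on either array, by gene, with values under 100 raised to 100. Dotted lines mark a 1.4-fold ratio and triangles lower bounds. Probe sets of a gene lie within 0.20 of each other on the log2 scale.

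The kinases differed from each other. Jak1 was at 1210.1 in activated cells and 4257 in naive cells by 1433805_at (3.52-fold lower). It was at 944 in activated cells and 3238 in naive cells by 1433803_at (3.43-fold lower). By 1433804_at it was at 471 in activated cells and 1449.6 in naive cells (3.08-fold lower). All 3 probe sets of this kinase, which serves many cytokine receptors besides the gamma chain family, passed the size rule, and the log2 ratio of -1.81 ranked 210 from the bottom. Jak3, whose product is confined to the gamma chain family, was at 435 in activated cells and 432 in naive cells by the probe set that names it alone (1425750_a_at, log2 ratio 0.01). The annotation gives 2 further probe sets to both Jak3 and its neighbour Insl3, and these were left out of all counts. The brighter of them (1423021_s_at) was at 399.7 in activated cells and 539 in naive cells, 1.35-fold lower and not past the size rule. The ratio of Jak3 to Jak1 thus differed by 1.83 on the log2 scale between the arrays. The other Janus kinases were also called lower, Jak2 at 771 in activated cells and 1468 in naive cells (1.90-fold) and Tyk2 at 219 in activated cells and 358 in naive cells (1.63-fold), and neither reaches a fold minimum of 2.

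Among the 5 receptor and kinase genes with more than 1 probe set above 100, the probe sets of a gene spanned 0.03 (Il2rb and Il7r) to 0.20 (Il4ra) on the log2 scale. Over all genes with more than 1 probe set at 100 or more on both arrays, such probe sets of a gene varied with a pooled standard deviation of 0.39. This is a different measure from the spans, and it leaves out lower bounds, which the Il2ra values are. Both measures cover probe choice within a pair of arrays and not the spread between experiments.

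**Figure D3:**
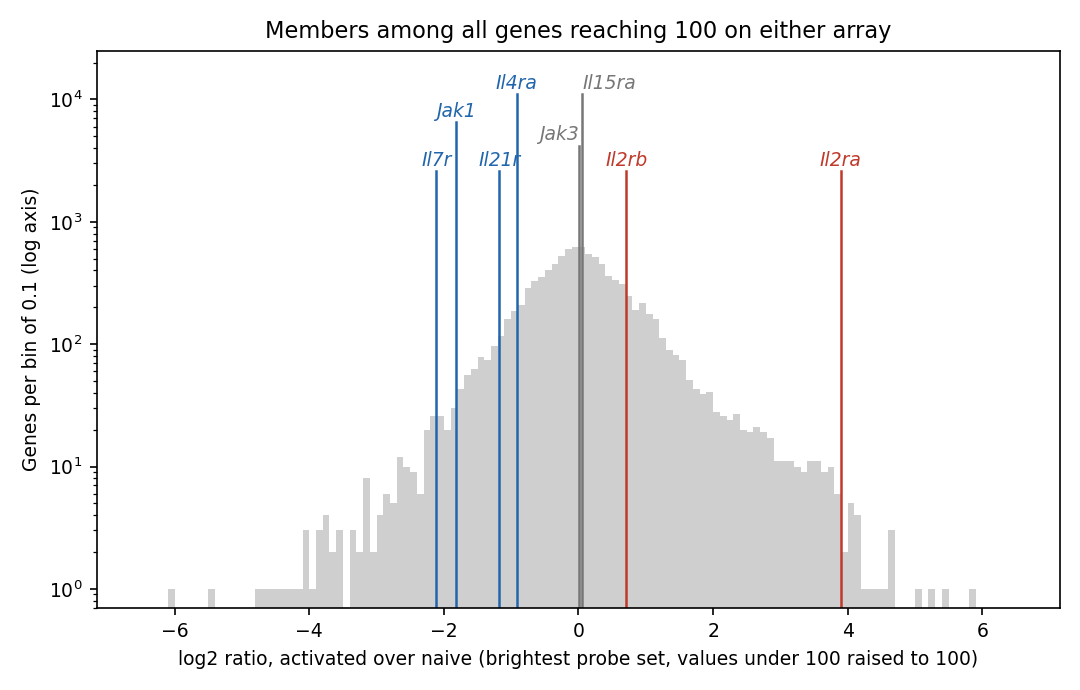
Number of genes (log axis) in bins of log2 ratio of activated over naive cells, for the 9842 genes that reached 100 on either array (grey), with the 8 measured members marked by lines at their own ratio. Line heights only keep the names apart. Il7r and Jak1 lie in the lower tail, Il2ra in the upper tail, and Jak3 and Il15ra at the centre.

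The 6 ligands (Il2, Il4, Il7, Il9, Il15 and Il21) lay under 100 on both arrays. Il2, which activated T cells secrete early after stimulation, was at 70.8 in activated cells and 9.34 in naive cells. Il15, made mainly by myeloid and stromal cells, was at 13.8 in activated cells and 78.3 in naive cells. These values were too low for a ratio, and RNA was taken at 72 h only.

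Of the 4 STAT genes, whose products carry the signal to the nucleus, 2 were lower, 0 higher and 2 not past. Among all measured genes 20.6% were lower and 23.7% higher. Of the 4 analysed, Stat5b was at 698 in activated cells and 1133 in naive cells (1.62-fold lower) and Stat6, the interleukin-4 factor, at 768 in activated cells and 1106 in naive cells (1.44-fold lower). Stat5a was at 402 in activated cells and 474 in naive cells, and Stat3 at 991 in activated cells and 1172 in naive cells, neither past the size rule, although 1 of 3 Stat3 probe sets above 100 was called lower, with a log2 ratio of -1.02. The second probe sets of Stat5b (log2 ratio 0.15) and Stat6 (-0.25) did not pass. With the median over the probe sets of each gene, or with a fold minimum of 2, the calls of Stat5b, Stat6 and Tyk2 are lost.

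The genes listed as feedback inhibitors held the largest ratios of the pathway lists in both directions. Cytokine signals induce several of them, and these then restrain the receptor. Socs2 was at 1109 in activated cells and 153 in naive cells (7.25-fold higher), and both of its probe sets above 100 were called higher. Cish, a STAT5 target that restrains interleukin-2 signalling, was at 908 in activated cells and 159 in naive cells (5.71-fold higher). Socs3, which acts mainly on the interleukin-6 receptor family, was at 219.9 in activated cells and 1887 in naive cells (8.58-fold lower), and all 3 of its probe sets were called lower. The other 5 genes of the list did not pass, among them Socs6 at 195.5 in activated cells and 166 in naive cells and Socs7 at 527 in activated cells and 404 in naive cells. Under quantile and lowess scaling Socs4 was called lower, as were Socs1 and Socs5 with a difference minimum of 50. Socs1, which binds the Janus kinases directly, was at 190.5 in activated cells and 271 in naive cells, with a difference too small for the rule. With 2 higher and 1 lower, the median log2 ratio of the 8 was -0.11, and the shares of all measured genes were 23.7% higher and 20.6% lower.

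Of 12 measured phosphatases and adaptors, 3 were lower and 0 higher, beside 20.6% and 23.7% of all measured genes, so the lower share was near that of the arrays as a whole. Sos1, an exchange factor of the RAS pathway, was at 460.1 in activated cells and 1124 in naive cells (2.44-fold lower), but this call is lost with the median over its probe sets. Pik3r1, the regulatory subunit of PI3 kinase, was at 423 in activated cells and 965 in naive cells (2.28-fold lower), and Sh2b3, an inhibitory adaptor, at 265 in activated cells and 395 in naive cells (1.49-fold lower). The phosphatase genes Ptprc (8945 in activated cells and 8717 in naive cells) and Ptpn1 (1527 in activated cells and 1487 in naive cells) were nearest to no difference. A second Ptprc probe set was called lower, with a log2 ratio of -1.60.

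Of 10 genes listed as survival and growth targets of these cytokines, 4 were higher and 0 lower by the brightest probe set. Among all measured genes 23.7% were higher and 20.6% lower. The median log2 ratio of the 10 was 0.35. The list includes Bcl2l11, which promotes cell death, at 784 in activated cells and 887 in naive cells, not past the rule. Bcl2l1, encoding the survival protein BCL-XL, was at 643 in activated cells and 214 in naive cells (log2 ratio 1.59, with 3 of 3 probe sets above 100 called higher). Myc was at 1645 in activated cells and 798 in naive cells (2.06-fold higher). The kinase gene Pim1 was at 1005 in activated cells and 508 in naive cells (1.98-fold higher), although its other probe set gave a log2 ratio of 0.14. Pim2 was at 1556 in activated cells and 1071 in naive cells (1.45-fold higher), a call lost under quantile and lowess scaling. Bcl2, the survival gene maintained by interleukin-7, was at 2236 in activated cells and 2509 in naive cells, not past the rule. Mcl1, at 3239 in activated cells and 3599 in naive cells, did not pass by its brightest probe set. However, 4 of its 6 probe sets were called lower, and so was the gene by the median over probe sets, with a log2 ratio of -1.07. Ccnd2 and Ccnd3 did not pass by the brightest probe set. Of their probe sets, 2 of 7 for Ccnd2 were called higher and 1 of 3 for Ccnd3 lower, with a log2 ratio of -2.70. Over the pathway as listed, 8 of the 45 genes measured were higher and 13 lower, against 23.7% and 20.6% of all measured genes.

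**Figure D4:**
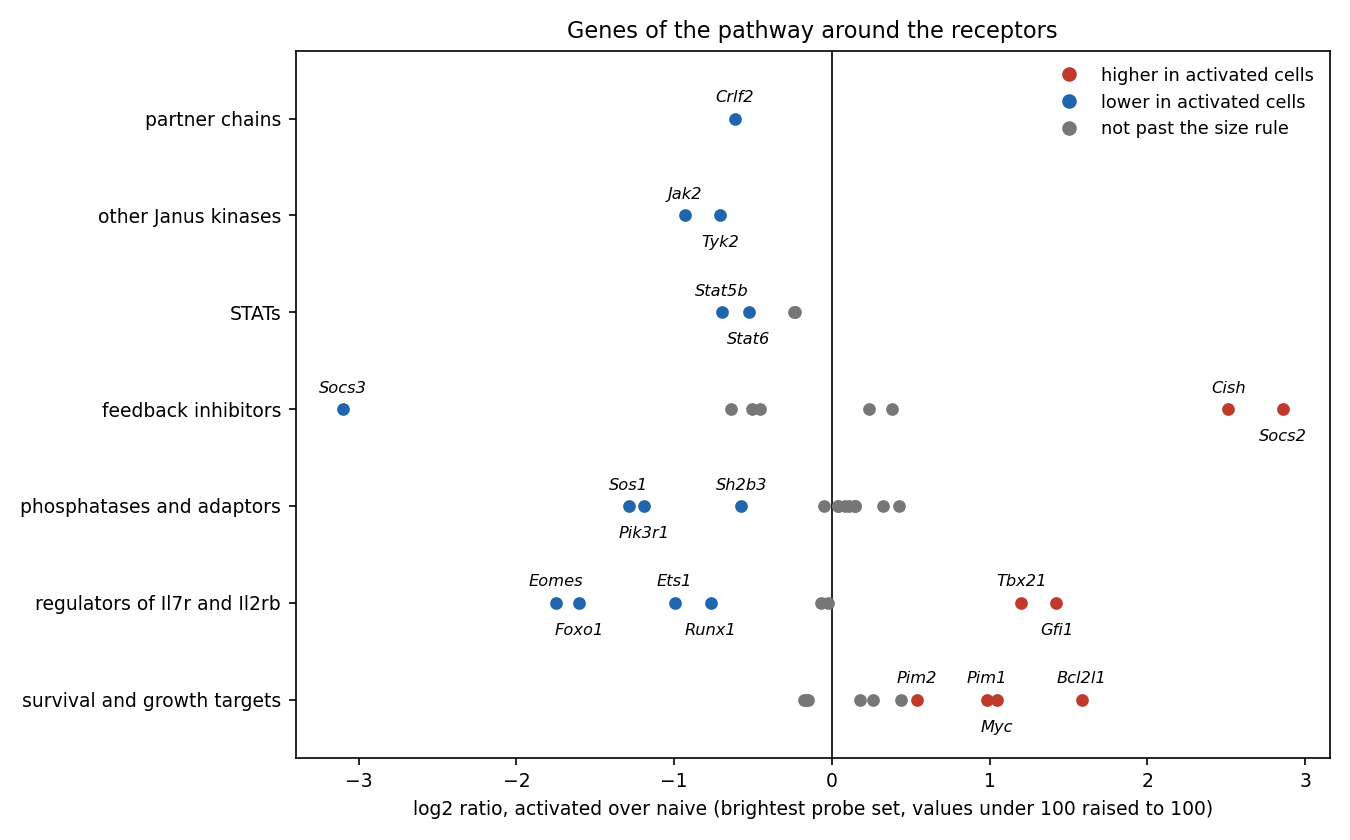
Log2 ratio of activated over naive cells for the measured genes of 7 pathway lists, with those past the size rule named. Socs3 lies lowest at -3.10 and Socs2 highest at 2.86, and the listed survival and growth genes past the rule all lie above 0.

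Markers of other cells were read on the same arrays, since several members are also expressed outside T cells. Transcripts of CD8+ T cells were abundant on both arrays, from 1984 to 6597 in activated cells and 3035 to 7725 in naive cells over 6 genes, of which Cd8b1 and Cd247 were called lower. Cd8a did not pass by its brightest probe set (4860.0 in activated cells and 6020.4 in naive cells), but 4 of its 5 probe sets were called lower, and so was the gene under quantile and lowess scaling and by the median over probe sets. Cd3d and Cd3g were called lower under quantile scaling. The 4 B cell markers analysed summed to 165 in activated cells and 585 in naive cells, and Cd79b alone was called lower (40.0 in activated cells and 293 in naive cells). The 5 myeloid markers summed to 515 in activated cells and 1064 in naive cells, with Lyz2 and Csf1r called lower. Csf1r alone was at 345 in activated cells and 642 in naive cells, and its other probe set above 100 had a log2 ratio of -0.20. Both calls are lost with a fold minimum of 2, and that of Lyz2 also with a difference minimum or floor of 200. The 2 NK cell markers summed to 57.7 in activated cells and 297 in naive cells, with Klra8 called lower and Ncr1 under 100 on both arrays. Mast cell and basophil markers lay under 100 on both arrays, and of the 2 red cell markers analysed Alas2 was at 1 in activated cells and 127 in naive cells and Hba-a1 at 45.9 in activated cells and 50.9 in naive cells, neither past the size rule. The summed B cell, myeloid and NK cell markers were thus lower in activated cells, but the sums include values under 100. Of these markers Pax5 (56.1 in activated cells and 44.7 in naive cells) and Cd14 (48.8 in activated cells and 48.3 in naive cells) were not lower. The summed CD8+ T cell genes were lower as well, at 25042 in activated cells and 33456 in naive cells. B cells also express Il4ra, Il21r and Jak1, and the part of other cells in these results was not tested. In pooled RNA, fewer cells of a type and less RNA per cell cannot be told apart.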

How the data were processed

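The authors deposited a linear intensity for each probe set and array. Per the labels' design text, dChip computed these from differences between perfect-match and mismatch probes and scaled them by an invariant set of probes, and its version is not stated in the sources used here. GCOS calls, named in the submitters' processing notes, and confidence bounds were not used here, so the size rule is not the study's own.

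Of 45101 probe sets, 64 controls were left out. The platform annotation gave 34945 probe sets 1 symbol, 932 several and 9160 none. All 17 member probe sets matched a RefSeq gene (GRCm38.p6) by Entrez identifier. Promoter sequences are RefSeq's, and 8 of 9 members matched, all but Il2rb. Members and lists were chosen with earlier results of these data known. Every member is named, and of each list up to 4 genes past the rule with the largest ratios and up to 2 nearest to 0. Other genes named, such as Socs1, Ets1 and Runx1, were chosen for their role or after their values were seen.

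Arrays were compared in Python 3.11.15 with pandas 2.3.3. The rule was run on simulated data as a check of the code only. The noise there was set by hand and not taken from replicates, so the check gives no error rate for these arrays. Alternatives were a fold minimum of 2, difference minimums of 50 and 200, floors of 50 and 200, median, quantile and lowess scaling, the median over probe sets, and leaving out probe sets named _x_at or _s_at.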

Additional observations from a re-analysis of the deposited data

How the results depend on the processing

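No paired analysis was possible because each group had 1 array. Among the members, Il2ra, Il7r, Il9r, Il21r, Jak1 and Jak3 kept their call under all 10 alternatives. With a fold minimum of 2, the members called higher were 1 gene and 2 probe sets in place of 2 and 4, as Il2rb did not reach it, and Il4ra was lost among the lower members. The pathway genes called lower then numbered 5 in place of 13, and over all probe sets 2121 were higher and 1750 lower, in place of 4224 and 3707. With a difference minimum of 200, 2454 of all probe sets were lower. The fold of Il2ra is set by the floor, since both naive values lay under it, and its log2 ratio was 4.90 with a floor of 50 and 2.90 with a floor of 200. With a floor of 200 no ratio was formed for Il15ra. Scaling moved the log2 ratio of Il7r between -2.33 and -2.12 and that of Jak1 between -2.03 and -1.83. The ratio of Jak3 lay between -0.07 and 0.00 under those scalings, so it has no direction. With 1 array per group the spread between experiments cannot be given.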
